A study of Arabidopsis thaliana with 12 samples.

Results

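AT3G04210 encodes an Arabidopsis protein of the TIR-NBS class, listed here under its literature name TN13. The gene was chosen for its higher values in light, in data where its level was already known. It is 1 of 692 genes that the array's annotation gives as the only gene of a probe, among 3439 probes in all. Probe 1051 is its only single-gene probe, and 0 probes with several genes carry it. All values of AT3G04210 in light against darkness are therefore a description, with no test.

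TIR-NBS proteins carry a TIR domain, the signalling domain of many intracellular immune receptors, and a nucleotide-binding site. They lack the leucine-rich repeats with which full-length TIR-NBS-LRR receptors usually recognise pathogen effectors. Plant TIR domains act as enzymes that break down NAD, and their products signal through EDS1 with PAD4 or SAG101 to helper receptors of the ADR1 and NRG1 families. This leads to defence gene expression, to salicylic acid, which is made largely from a chloroplast precursor, and in some cases to cell death. Bromoxynil, a nitrile herbicide, stops photosynthetic electron flow by binding photosystem II.

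Total RNA came from wild-type plants of ecotype Landsberg, all of them given 500 µM bromoxynil. The dark group (n = 6) was sampled after 12 h of dark adaptation. The light group (n = 6) was sampled after 30 min of renewed light that followed a 12 h dark period. Samples of each group carry the numbers 1 to 6. Whether they are separate plants or repeat measurements is not stated, and the spread between them may be technical. Plants without the herbicide were not analysed here, so light and dark are compared only in its presence. The labels name no organ. Of 9 listed green-tissue genes, 4 were on single-gene probes (LHB1B2, PSBW, PSBY and PSAN), and each was above 0 in all 12 samples. Of 3381 tested probes, 188 were listed at 0 in some sample. Most probes were thus above 0 throughout, and this does not show the organ. Of 8 listed markers of root, pollen and seed, 0 were on such probes.

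Among the samples, light 1 and light 2 were on another scale. The median deposited intensity was 3.88 in light 1 and 3.90 in light 2, against 0.559 to 0.654 in the other 10. Results for AT3G04210 are given with and without these samples. Levels of its probe are compared between samples as multiples of each sample's median, as percentiles within the sample and as quantile-normalised log2 intensities. A probe's brightness also depends on the probe itself, so no transcript abundance is compared between genes. In RNA from plants with no organ named, fewer cells with the transcript and less transcript per cell cannot be told apart.

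In darkness, AT3G04210 had a deposited relative intensity of 1.11 in dark 1, 1.15 in dark 2, 1.254 in dark 3, 1.08 in dark 4, 0.983 in dark 5 and 0.848 in dark 6. In light the deposited intensity was 17.1 in light 1, 19.0 in light 2, 2.23 in light 3, 2.01 in light 4, 2.29 in light 5 and 1.83 in light 6. Every light sample was above every dark sample, and light 1 and light 2 were far above the other light samples, as were their medians over all probes.

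As a multiple of the sample median, AT3G04210 was at 1.69, 1.77, 1.92, 1.66, 1.58 and 1.35 in dark 1 to dark 6. The corresponding multiples in light 1 to light 6 were 4.40, 4.88, 3.83, 3.46, 4.08 and 3.27. The group means were 1.66 ± 0.19 in darkness and 3.99 ± 0.60 in light (SD, n = 6 each). Without light 1 and light 2 the light mean was 3.66 ± 0.36 (SD, n = 4). On this scale the 2 samples remained the highest of the light group, but light 5, at 4.08, came close to light 1, at 4.40.

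The rank of the probe within each sample needs no scaling. AT3G04210 lay at the 77.1, 78.9, 83.2, 76.7, 74.1 and 66.4 percentile in dark 1 to dark 6. In light 1 to light 6 it lay at the 97.2, 98.0, 94.9, 93.9, 94.7 and 92.6 percentile. Between 576 and 1153 probes were brighter than it in the dark samples, and between 67 and 253 in the light samples. The groups did not overlap in rank either, and dark 6 and light 6 were the lowest of their groups. No overlap with higher values in light was seen for 85 of 3381 tested probes (2.51%) after quantile normalisation.

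**Figure D1:**
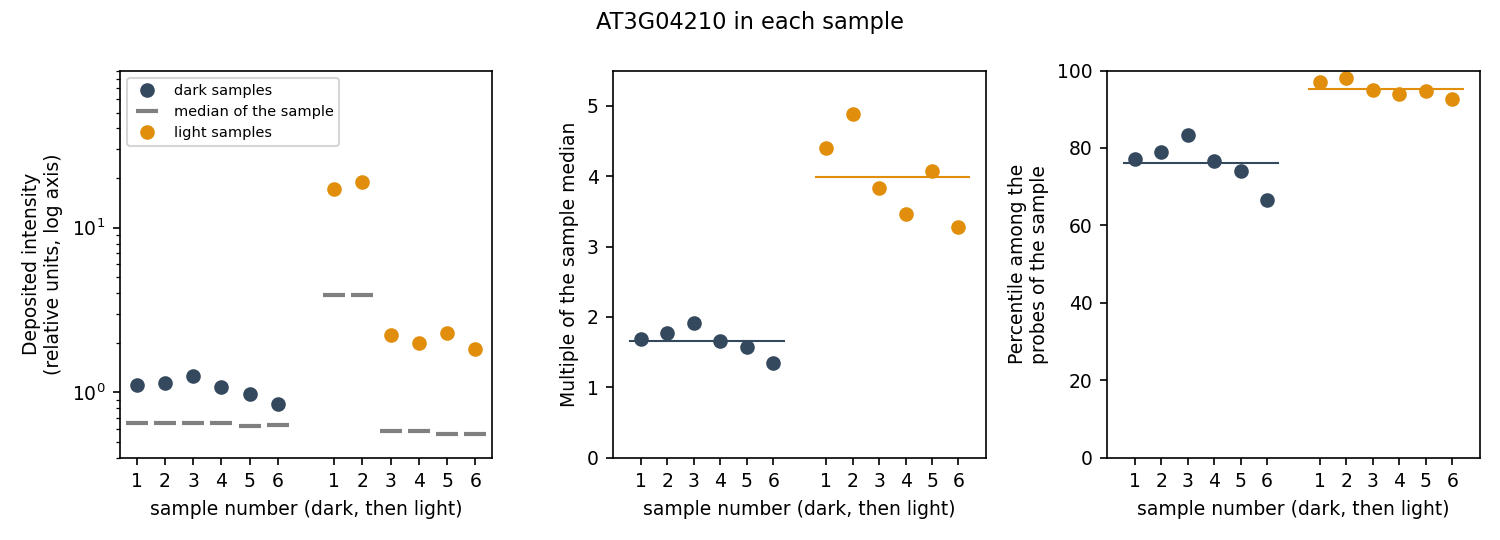
AT3G04210 in each of the 6 dark and 6 light samples as deposited intensity on a log axis (grey dashes: median of all probes of the sample), as a multiple of the sample median, and as a percentile among the probes of the sample. Lines are group means. Light 1 and light 2 reach 17.1 and 19.0 as deposited, but 4.40 and 4.88 as multiples of their medians, against 3.27 to 4.08 in the other light samples.

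After quantile normalisation, AT3G04210 had a mean log2 intensity of 0.50 ± 0.18 in darkness and 1.76 ± 0.47 in light (SD, n = 6 each). The log2 change was 1.26 with a standard error of 0.20 (95% confidence interval 0.83 to 1.69), or 2.39-fold. The confidence interval takes the 12 samples as independent, with no term for pairs or sample numbers. As the gene was chosen for this rise, the interval is a description and no test. The lowest light sample, light 6 at 1.31, was 0.56 above the highest dark sample, dark 3 at 0.75. Without light 1 and light 2 the change was 0.99, and without numbers 1 and 2 of both groups it was 1.035. Median centring in place of quantile normalisation gave 1.26.

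The size of the change differed between sample numbers, and how much it differed rested on the scaling. The quantile-normalised log2 change was 1.61 in number 1, 1.93 in number 2, 0.84 in number 3, 0.94 in number 4, 1.13 in number 5 and 1.0996 in number 6. With median centring the changes were 1.37, 1.46, 1.01, 1.06, 1.37 and 1.28 in the same order. Numbers 1 and 2 were thus the highest by a wide margin after quantile normalisation, whereas with median centring number 1 and number 5 both had 1.37. The SD of the log2 change over all tested probes was 1.23 in number 1 and 1.21 in number 2, against 0.66 to 0.80 in the other numbers. Expressed in this SD, the change in AT3G04210 was 1.31, 1.60, 1.27, 1.32, 1.53 and 1.38 in numbers 1 to 6. The part of the array-wide spread in the larger values of numbers 1 and 2 was not tested.

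**Figure D2:**
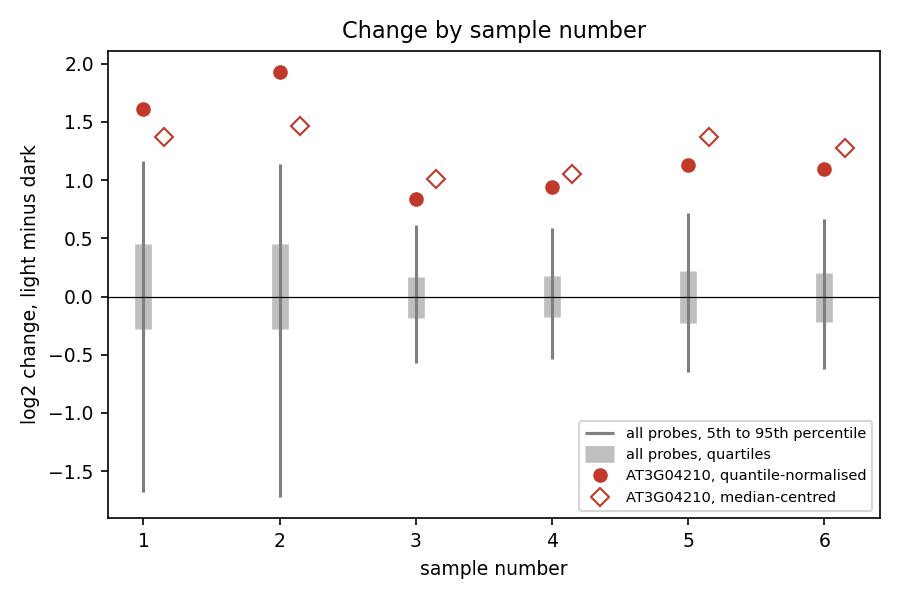
Log2 change of AT3G04210, light minus dark, for each sample number, quantile-normalised (filled circles) and median-centred (open diamonds), with quartiles (thick grey bars) and the 5th to 95th percentile (thin lines) of all 3381 tested probes after quantile normalisation. The gene lies above the 95th percentile in all 6 numbers, and the grey ranges of numbers 1 and 2 are the widest.

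Within each group, samples 1 and 2, 3 and 4, and 5 and 6 resembled each other over the array (consensus correlation 0.669 over the tested probes) and may be repeat measurements. In darkness the partners' quantile-normalised levels of AT3G04210 differed by 0.06 in samples 1 and 2, 0.24 in samples 3 and 4 and 0.22 in samples 5 and 6. The means of the 3 dark pairs spanned 0.31, against at most 0.24 between partners. In light the partners differed by 0.14 to 0.38 and the pair means spanned 0.89, a span that fell to 0.34 with median centring. The log2 change by pair was 1.77 (3.41-fold) in samples 1 and 2, 0.89 (1.85-fold) in samples 3 and 4 and 1.12 (2.17-fold) in samples 5 and 6.

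Relative to the other probes, AT3G04210 had the 55th largest log2 change of 3381 and the 17th largest of 677 tested single-gene probes. Of the 16 single-gene probes with a larger change, 15 lay below the median level of all probes in darkness and 11 were listed at 0 in some sample. With a pseudocount at the 10th percentile (0.223), which damps dim probes, AT3G04210 had rank 2 among single-gene probes, with a change of 1.12. With the dimmest 25% of probes left out its rank was 3. Over all tested probes, 96 of 3381 (2.84%) passed the limma threshold (adjusted p under 0.05), 70 of them higher in light (2.07%) and 26 lower (0.769%). The count was 16 with the sample pairs as a random block and 1 with the pairs averaged. These shares are given as background, and nothing is read from them about a gene chosen on this contrast.

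The genes next to it in order of change show how dim probes fill this range. AT4G18180, of the pectin lyase-like family, came next above among single-gene probes measured in every sample, with a log2 change of 1.47. Its multiples of the sample median were 0.29 to 0.53 in darkness and 0.79 to 1.53 in light, without overlap. AT5G14590, between these genes at 1.41, was listed at 0 in 9 of 12 samples. Next below came AT2G24810 at 1.246, with 1 sample at 0, and AT2G45500 at 1.21, with 8 samples at 0. In AT5G14590, AT2G24810 and AT2G45500 the groups overlapped and light was higher in 2 of 6 numbers each. In AT3G04210 and AT4G18180 it was higher in 6 of 6.

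Among the 200 probes nearest to AT3G04210 in dark level, 0 had a larger change. The median change of these 200 was -0.06, their 95th percentile 0.38 and their highest value 0.93. The single-gene probes next to it in dark level were AT2G37420, AT1G27610, AT2G46910 and AT3G21810, with log2 changes of -0.06, -0.36, -0.39 and 0.10. With limma 0 of these 4 passed the threshold (adjusted p 0.2 to 0.827), and 1, AT1G27610, had an unadjusted p under 0.05. The SD of AT3G04210 between dark samples was 0.18, against a median of 0.16 over the 200 probes, and 41.5% of them had a larger one. Between light samples its SD was 0.47 against a median of 0.21, and 20.5% had a larger one.

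**Figure D3:**
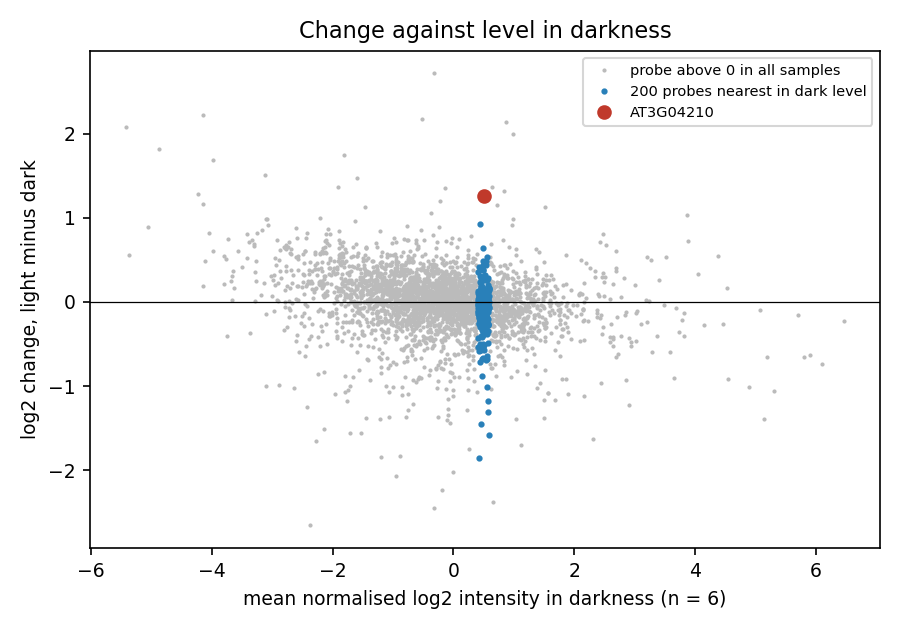
Log2 change, light minus dark, against the mean normalised log2 intensity in darkness for probes above 0 in all 12 samples (grey), the 200 probes nearest to AT3G04210 in dark level (blue) and AT3G04210 (red). The gene, at a dark level of 0.50 and a change of 1.26, lies above the 200 probes, whose highest change is 0.93.

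Other listed genes of the TIR pathway could hardly be compared on these arrays. Of 78 loci in 8 lists of immune receptors and immunity genes, 2 were on single-gene probes, namely AT3G04210 itself and AT1G66090, another TIR-NBS gene. AT1G66090 was listed at 0 in 12 of 12 samples and could not be tested. The remaining 76 loci were on no single-gene probe. They include EDS1, PAD4 and SAG101, which relay TIR signals, and the helper receptors ADR1 and NRG1.1. They also include RPS4 and SNC1, full-length TIR-NBS-LRR receptors, SGT1B and MOS6, which act in receptor stability and nuclear import, ICS1 of salicylic acid synthesis, and the defence marker PR1. Whether EDS1 signalling or salicylic acid targets differed between light and dark was therefore not analysed here. Receptor genes outside the lists were not compared as a set, and some may be on tested single-gene probes. The locus AT1G72890, close in number to the listed AT1G72920, was on such a probe, but its class was not checked here. Its normalised log2 intensity was -1.67 in darkness and -1.88 in light, a change of -0.21.

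A further 3 probes carry several genes of which 1 is on the lists, and no gene is named from them. With limma and no block, 0 of the 3 passed the threshold and 0 had an unadjusted p under 0.05. Probe 1869, with 2 annotated genes, had a normalised log2 intensity of 0.51 ± 0.19 in darkness, close to that of AT3G04210 on its own probe, and 0.64 ± 0.18 in light (SD, n = 6 each). Its log2 change was 0.13 (95% confidence interval -0.11 to 0.37, adjusted p 0.569). Probe 2123, also with 2 genes, had a change of -0.48 (95% confidence interval -1.103 to 0.15, adjusted p 0.395) and was lower in light in 6 of 6 numbers. Using limma with the sample number as a block, its unadjusted p was 0.00324 and its adjusted p 0.0663, still above the threshold. Probe 2814, with 3 genes, was listed at 0 in 11 of 12 samples.

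The gene order of chromosome 3 puts AT3G04220, a full-length TIR-NBS-LRR gene, directly beside AT3G04210, and AT3G04200 on the other side. Neither was on a tested single-gene probe. The nearest measured loci were AT3G03890, with 39 genes between, and AT3G03590, with 84, on one side, and AT3G04500, with 33, and AT3G04560, with 42, on the other. Their log2 changes were -0.35, -0.05, -0.04 and 0.11. With limma 0 of these 4 passed the threshold (adjusted p 0.743 to 0.915), and 0 had an unadjusted p under 0.05. AT3G03890 had a change of -0.81 without numbers 1 and 2 of both groups (limma adjusted p 0.0181), a call that was lost with the sample number as a block (adjusted p 0.0572), and its dark 2 value lay far below the other dark samples.

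The 5 single-gene probes whose levels followed AT3G04210 most closely over the 12 samples were AT4G35660 (Pearson r 0.891), AT1G35210 (0.865), AT5G11550 (0.863), CML30 (0.853) and AT3G18870 (0.846). Over all 676 other single-gene probes, r ran from -0.925 to 0.891 with a median of 0.074. These correlations contain the difference between light and dark on which the gene was chosen, so a high r favours genes that were also higher in light. CML30 is a calmodulin-like calcium sensor with EF-hand motifs. AT3G18870 encodes a protein of the mTERF family, which acts in organelle gene expression.

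The 5 genes had smaller changes than AT3G04210, except AT4G35660. CML30 had multiples of the sample median of 0.84 to 1.19 in darkness (median 0.99) and 1.58 to 1.85 in light (median 1.65). Its groups did not overlap, and light 1 and light 2, at 1.62 and 1.71, lay within the range of the other light samples, unlike AT3G04210. The multiples of AT4G35660 were 1.82 to 3.29 in darkness (median 1.95) and 5.71 to 12.8 in light (median 9.88). On this scale light 1 and light 2 were the lowest light samples, at 6.27 and 5.71, whereas after quantile normalisation they were the highest, at log2 intensities of 3.25 and 3.00012 against 2.83 to 2.97. AT5G11550, at 1.09 to 1.22 in darkness and 1.38 to 1.74 in light, also did not overlap on either scale. The groups of AT3G18870 did not overlap as multiples, with 2.10 as the highest dark and 2.20 as the lowest light value, but did after quantile normalisation. Those of AT1G35210 overlapped on both scales.

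Without numbers 1 and 2 of both groups, CML30 had an r of 0.992 with AT3G04210 and AT4G35660 one of 0.963, with ranks 2 and 3 of 676. AT5G11550, AT1G35210 and AT3G18870 then ranked 12th, 18th and 30th. Once the group means are removed, what remains is how the gene varied among samples of the same condition. Over all 12 samples the deviations of CML30 had an r of 0.15 with those of AT3G04210, and without numbers 1 and 2 of both groups one of 0.93, over 8 samples. AT4G35660 went from 0.29 to 0.65, whereas AT1G35210 went from 0.72 to 0.12. AT5G11550 had 0.29 in both, and AT3G18870 went from 0.43 to 0.28.

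The genes most alike in deviations from the group means were others: 0 of the 5 above were among them. AT3G13150 (r 0.922), AT4G39760 (0.913), NTRC (0.902), AT4G03090 (0.891) and AT5G04600 (0.888) came first, with a median of 0.218 over 676 probes. NTRC encodes a chloroplast thioredoxin reductase with its own thioredoxin domain, which passes electrons from NADPH to plastid enzymes. Its normalised log2 intensity was 0.64 in light 1 and 0.85 in light 2, against -0.46 to -0.08 in the other light samples and -0.29 to -0.02 in darkness. Its change between the groups was 0.24 (95% confidence interval -0.22 to 0.71). After quantile normalisation light 1 and light 2 were the highest light samples in all 5 genes. As multiples of the sample median they were the highest in NTRC, AT4G03090 and AT5G04600, but the lowest in AT3G13150, at 6.99 and 7.17, and in AT4G39760, at 5.99967 and 5.82. With median centring the r of deviations was 0.339 for AT3G13150 and -0.631 for AT4G39760, so these likenesses did not hold under that scaling, and it was 0.698 for NTRC, 0.870 for AT4G03090 and 0.741 for AT5G04600. Without numbers 1 and 2 of both groups the 5 ranked between 67th and 159th of 676, with r of 0.505 to 0.706. Samples share the array-wide shift of these 2 samples, and its part in the correlations was not tested.

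**Figure D4:**
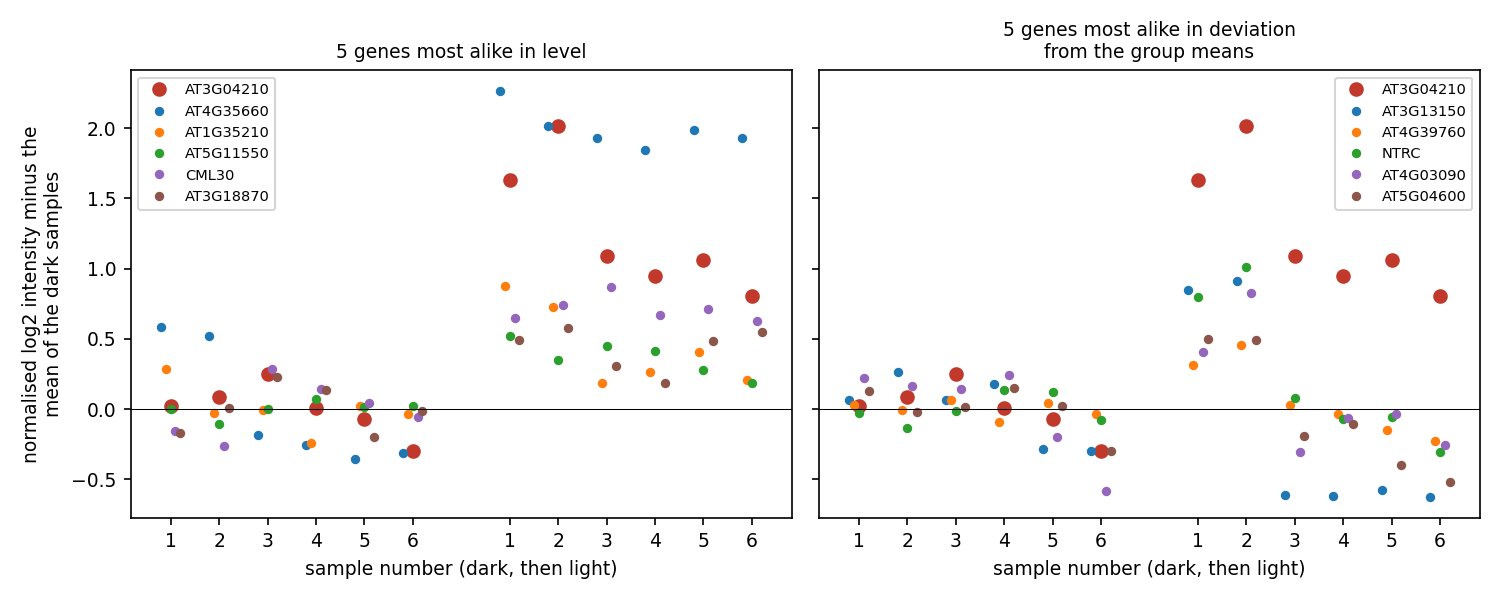
Normalised log2 intensity minus the mean of the dark samples in dark 1 to 6 and light 1 to 6 for AT3G04210 (large red points) with the 5 single-gene probes most alike in level (left) and in deviation from the group means (right). On the left all genes are higher in light on average, and on the right the other 5 are raised in light 1 and light 2, while light 3 to light 6 lie near or below the dark samples.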

How the data were processed

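The deposited table holds relative spot intensities on a linear scale for 3439 probes in 12 samples, 1 column a sample. The sources used here do not say how the authors scanned, corrected and scaled these. The deposited intensities are all at or above 0 and reach 100 in 10 samples. Sample medians differed up to 6.98-fold, so a 0 was replaced by its sample's lowest positive value, log2 was taken, and samples were quantile normalised. Probes at 0 in every sample (58) were left out, and 3381 were tested in R 4.3.3 with limma 3.58.1 (linear fits moderated by eBayes, no covariates, two-sided, threshold 0.05 on the Benjamini-Hochberg adjusted p), a step also tested on simulated data. The simulated samples were independent, without pairs, spots at 0 or samples on another scale, so they cannot show how the fit handles these.

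Of the probes, 692 have 1 annotated gene, 870 several and 1877 none; 690 of the 692 genes matched RefSeq's TAIR10.1 table, used for names and gene order. Coordinates are left out, as the sources used here name no build for the array. Sequences are left out, as these sources hold none, so protein and promoter motifs were not searched.

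The gene and the lists were chosen with earlier results of these data known. Named genes were the gene itself, listed loci on single-gene probes, the 5 most alike in level and the 5 in deviations, and the 2 on each side in order of change, dark level and gene order. AT1G72890 is named outside these rules, and the counts over named genes leave it out. The search for receptor terms could use only gene synonyms, as RefSeq's table used here holds no descriptions. It found 0 probes and so missed even AT3G04210. It therefore cannot show whether other receptor genes are on the array. Deviations from group means correlated between same-numbered dark and light samples at 0.337 to 0.491, all over 0.1, so the numbers pair the samples, as seen in the data and not stated in the labels. The precision is limited by the number of samples.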

Additional observations from a re-analysis of the deposited data

Results flagged for a closer look

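In 7 of 60 groups of 6 values among the named genes and probes, the highest or lowest sample was separated from the rest by most of the group's range. Chance alone flags about 1 group in 20 where the values are independent and normally distributed. Samples here resembled each other in pairs, and the flags of probe 2814, AT5G14590 and AT2G24810 involve spots listed at 0. The count is therefore not to be read against that rate. Neither group of AT3G04210 was among them. The rule looks at 1 extreme sample at a time, so 2 samples that lie apart together can escape it. In its light group, light 1 and light 2 were at 2.13 and 2.52, against 1.31 to 1.59 in the others. Normalised log2 intensities are given. Dark 2 had -0.17 for probe 2123, against a dark median of 0.82. Dark 2 had -4.13 for AT3G03890, against a median of -1.30. Dark 2 had -10.57 for AT2G24810, the value of a spot listed at 0, against a median of -1.91. Dark 6 had -0.95 for AT5G04600, against a median of -0.63. Dark 4 had -5.44 for probe 2814, whose other 11 samples were all listed at 0. In AT5G14590, which was mostly listed at 0, dark 5 had -10.28 and light 5 had -4.09, against a median of -10.57 in both groups.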

How the results depend on the processing

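In 22 of 23 alternatives the change in AT3G04210 lay between 0.99 and 1.33, within the pooled spread between samples (0.35) of 1.26. Some of these could not alter the change, which was 1.258 in each. They are the replicate block, pairs as a random block, pairs averaged, eBayes with trend and robust, and the dimmest 25% left out. The agreement is therefore partly built in. Leaving out each sample gave 1.12 to 1.33. Without scaling it was 2.01, against a median of 0.78 over all probes and thus 1.23 above it. Its rank ran from 2nd to 22nd among single-gene probes in those 22.

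The count of 96 probes past the threshold was 2 without scaling, 16 with pairs as a random block and 1 with pairs averaged. It was 116 with the replicate block and 49 with that block and without numbers 1 and 2, an alternative chosen after seeing the data. Leaving out each sample gave 46 to 86, with 46 without dark 3, 57 without dark 4, 59 without light 5 and 60 without light 6. Among the listed genes, the genes next in gene order and the 3 probes with several genes, the replicate block changed no call in all 12 samples. Without numbers 1 and 2 it ended that of AT3G03890 (adjusted p 0.0181 without and 0.0572 with the block). The cause was not tested, though fewer samples or averages also leave fewer degrees of freedom.

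Of the 5 genes most alike in level, 3 were shared with Spearman correlation, 2 with median centring, 2 without numbers 1 and 2 and 0 with deviations. Leaving out each sample, also added after seeing the data, gave 2 to 4. The count was 2 without dark 1 or light 4, and 3 without dark 2, dark 5, dark 6, light 2, light 3 or light 5. The listed immunity genes had no testable member besides AT3G04210, so alternatives could not be run for them. Signal over background is unknown.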
